A study of Homo sapiens with 12 samples.

Results

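The imprinted miRNA cluster of human chromosome band 14q32 lies between the genes DLK1 and DIO3. It was followed in MDA-MB-231 cells and in extracellular vesicles (EVs) pelleted from their conditioned medium. Its members are the 48 mature miRNAs of the cluster that a list of names picks from the 2588 mature miRNAs of the count table. The rule picks them by name alone, from a list drawn up with earlier results of these data known.

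MDA-MB-231 is a triple-negative breast cancer cell line. Each of 3 lines derived from it gave cells and EVs with 2 libraries each, which makes 12 small RNA libraries in 6 groups. The control line carried the empty lentiviral vector SHC001. The RAB27A knockdown line (Rab27a KD) carried a single short hairpin RNA against RAB27A, a GTPase that docks vesicle-laden compartments at the cell surface. The knockout line (miR-122 KO) had its hsa-miR-122 gene edited by CRISPR-Cas9 with a pair of guide RNAs. All lines were cultured in DMEM with 10% fetal bovine serum, and medium for EVs was conditioned for 24 h without serum and with 1% BSA. EVs were pelleted by ultracentrifugation, and the cells that had conditioned the medium were harvested at the same time. The labels say neither whether a line is 1 clone nor where the replicates of a line come from. Every p-value therefore rests on the spread between libraries, which may be technical.

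The 14q32 miRNAs are cut from long noncoding transcripts that are read from the maternal chromosome, together with MEG3 and MEG8, while DLK1, RTL1 and DIO3 are read from the paternal one. A miRNA is excised from a hairpin as a 5p or a 3p strand, and its seed, bases 2 to 8, pairs with target transcripts. The cluster is known for high levels in brain, placenta, embryonic tissue and mesenchymal cells.

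All 48 members matched a mature sequence of RefSeq (GRCh38.p14), at 50 genomic copies in 41 hairpins, each on the plus strand of chromosome 14 between positions 100869075 and 101066786. The first set of sequences is shown because these 5 members together held 65.3% of all member counts in control EVs. Sequences run 5′ to 3′, with the seed in capitals.

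hsa-miR-411-5p: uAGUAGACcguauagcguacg
hsa-miR-127-3p: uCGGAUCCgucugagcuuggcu
hsa-miR-379-5p: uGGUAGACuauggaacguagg
hsa-miR-494-3p: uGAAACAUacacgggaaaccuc
hsa-miR-369-3p: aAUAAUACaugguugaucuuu

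Their places are chr14:101023340-101023360 for miR-411-5p, chr14:100883035-100883056 for miR-127-3p, chr14:101022071-101022091 for miR-379-5p, chr14:101029681-101029702 for miR-494-3p and chr14:101065641-101065661 for miR-369-3p. By the GENCODE v29 annotation the hairpins of miR-411, miR-379 and miR-494 lie in introns of MEG8 and that of miR-369 in an intron of MEG9. The hairpin of miR-127 lies antisense to an exon of RTL1, as do those of miR-431, miR-433, miR-432 and miR-136, and all 5 also lie in an intron of the lincRNA AL117190.1. Of the 41 hairpins, 13 overlap no annotated host gene. The neighbours miR-379-5p and miR-411-5p differ, with miR-379-5p as reference and positions counted from 1 at the 5′ end, by G2A within the seed and by U9C, A10G, G12A, G13U, A15G and G20C behind it.

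The second set is shown because all but its last member have near copies within it, whose reads can be confused with one another by the authors' matching. The last member is listed for the seed it shares with the member above it.

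hsa-miR-376a-3p: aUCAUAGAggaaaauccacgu
hsa-miR-376b-3p: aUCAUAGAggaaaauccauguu
hsa-miR-376c-3p: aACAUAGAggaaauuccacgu
hsa-miR-487b-3p: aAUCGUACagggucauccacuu
hsa-miR-487a-3p: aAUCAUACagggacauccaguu
hsa-miR-154-3p: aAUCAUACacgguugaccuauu

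Against miR-376a-3p, miR-376b-3p carries C19U and 1 more base at its end, and miR-376c-3p carries U2A and A14U. Against miR-487b-3p, miR-487a-3p carries G5A in the seed, U13A and C20G. The 48 members have 46 distinct seeds. miR-376a-3p shares UCAUAGA with miR-376b-3p, and miR-487a-3p shares AUCAUAC with miR-154-3p. The members of the miR-376 and miR-487 families are therefore reported as uncertain relative to one another. Members are 21 to 23 bases long with a median GC content of 45.5% (23.8% to 68.2%), against a median of 52.1% over 964 other miRNAs with a count in control EVs and a RefSeq sequence.

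Library totals ran from 164656 counts in knockdown EVs to 11840597 in control cells. A level is given as CPM, the count scaled to a library total of 1000000. A limit of 3 counts over a group's summed total stood at 0.131 CPM for the control cells, 0.476 for the knockdown cells and 0.15 for the knockout cells. For EVs it stood at 0.602 CPM (control), 8.95 (knockdown) and 0.433 (knockout), so the knockdown EVs had the coarsest resolution. Intervals and limits pool the 2 libraries of a group and cover counting error only, not the spread between libraries. Relative to counting error, the squared difference between a group's 2 libraries was 16.3 in control EVs, 8.75 in knockdown EVs and 30.3 in knockout EVs. In cells it was 31.8 (control), 13.2 (knockdown) and 211 (knockout), each over the miRNAs with more counts. The labels also name no molecular identifiers. miR-122-5p, the product of the edited gene and otherwise a liver miRNA, had 5 and 4 counts in control cells, 39 and 40 in knockdown cells and none in either knockout cell library. It had 790 and 651 counts in control EVs, 7 and 5 in knockdown EVs and 4 and 3 in knockout EVs.

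The 14q32 miRNAs were found almost entirely in the EVs of the control line. Summed over the 48 members, control EVs held 1865.3 and 1778.6 CPM. Knockdown EVs held 36.4 and 41.1 CPM, and knockout EVs 17.3 and 8.21 CPM. The cells held 0.76 and 0.994 CPM in the control line, 2.22 and 1.59 CPM in the knockdown line and 1.28 and 2.13 CPM in the knockout line. As means the EVs stood at 1821.9 ± 61.3 CPM (control), 38.8 ± 3.29 (knockdown) and 12.8 ± 6.44 (knockout), and the cells at 0.877 ± 0.165 (control), 1.9 ± 0.441 (knockdown) and 1.71 ± 0.606 (knockout; SD, n = 2 each). In the order of these means, control EVs stood above knockdown EVs, knockdown EVs above knockout EVs and knockout EVs above each cell group with no overlap of libraries. Knockdown cells and knockout cells overlapped, and both lay above control cells. Of 9241 member counts in all 12 libraries, 9071 (98.2%) were in the pair of control EV libraries, which held 8.11% of all counts of the table. The other 10 libraries held 170 member counts together. In sequenced bulk material of this kind, fewer vesicles or cells that carry a miRNA and less of it in each cannot be told apart.

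**Figure D1:**
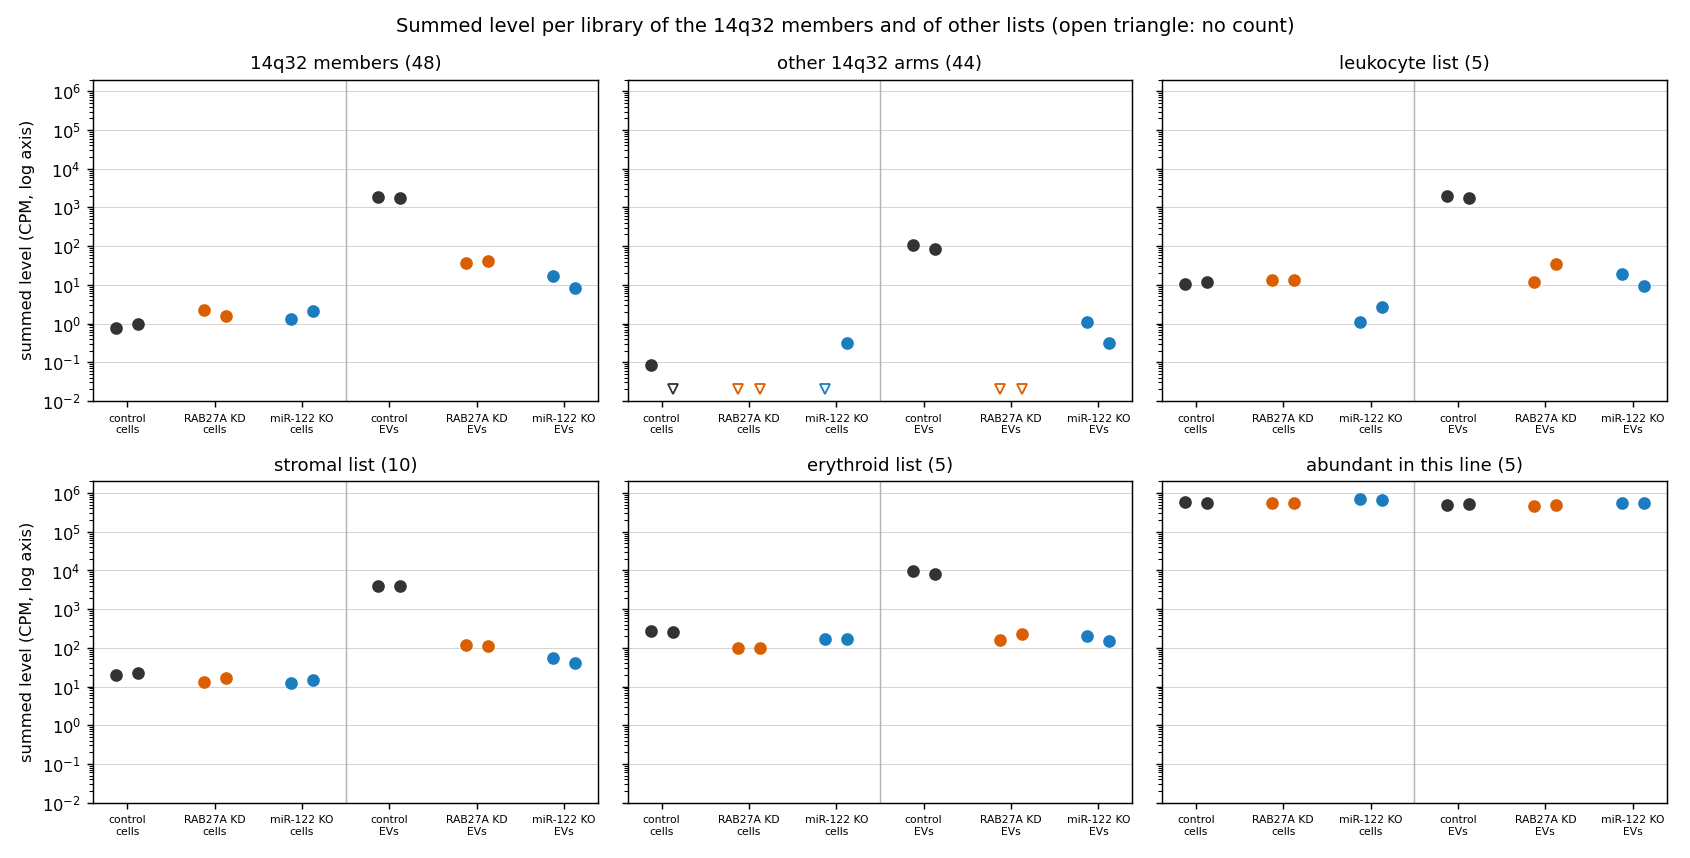
Summed level (CPM, log axis) of the 48 members, of 44 further mature miRNAs from the same cluster and of 3 marker lists and 1 list of abundant miRNAs, with 1 point per library (open triangle for no count) and the 6 groups along the horizontal axis. The 48 members reach 1865.3 and 1778.6 CPM in control EVs and stay at or below 41.1 CPM elsewhere, while the list of miRNAs abundant in this line is nearly level over all 12 libraries.

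Of 6 lists of miRNAs that mark other cell types, the leukocyte, stromal, erythroid and endothelial lists were also high in control EVs, while the liver and epithelial lists had another pattern. The leukocyte list (miR-142, miR-150 and miR-223, 5 mature miRNAs) reached a sum of 1900.7 ± 158 CPM there (SD, n = 2). Its sum was 23.7 ± 16.3 CPM in EVs of the knockdown line, 14.2 ± 6.67 in those of the knockout line and 10.9 ± 0.769 in cells of the control line. The stromal list (miR-143, miR-145, miR-199 and miR-214, 10 mature miRNAs) reached 3891.3 ± 59.7 CPM, against 113 ± 2.73, 47.5 ± 10 and 21.1 ± 1.32 in the same 3 groups. The erythroid list (miR-451a, miR-144 and miR-486, 5 mature miRNAs) reached 8810.7 ± 996 CPM, against 193 ± 50.2, 178 ± 41.5 and 271 ± 10.7. The arms of endothelial miR-126 reached 2807.2 ± 225 CPM, against 253 ± 31.9, 133 ± 4.69 and 112 ± 2.57. All 5 leukocyte miRNAs had counts in control EVs, whereas miR-150-5p, miR-223-3p and miR-223-5p were at 0 in knockdown EVs and in control cells. In knockdown EVs 8 of the 10 stromal miRNAs were at 0, of which miR-214-5p was at 0 in control EVs too. A single miRNA held 37 of the 38 stromal counts in knockdown EVs, and a single one 6085 of the 6209 erythroid counts in control cells. Sums and ratios of these lists can thus rest on 1 miRNA. The limit of 3 counts stood at 8.95 CPM in knockdown EVs, so a miRNA without a count there can still have a low level. The liver list (miR-122-5p, miR-192-5p and miR-194-5p) was at 709 ± 36.4 CPM in control EVs, 727 ± 106 in EVs of the knockdown line, 389 ± 7.51 in those of the knockout line and 271 ± 10.3 in control cells. Without miR-122-5p, a split made after its values were seen, the ratio of control to knockdown EVs was 0.607 (0.53 to 0.699) and that of control to knockout EVs 1.08 (1.02 to 1.14). The epithelial list (the miR-200 family, 5 mature miRNAs) was at 190 ± 15.3 CPM in control EVs, with a ratio to knockdown EVs of 0.451 (0.378 to 0.542) and to knockout EVs of 0.588 (0.544 to 0.635). The list of 5 miRNAs abundant in this line (miR-21-5p, miR-100-5p, miR-221-3p, miR-222-3p and miR-29a-3p) ranged only from 475843.4 to 689235.7 CPM over the 6 group means. The part of these marker miRNAs' sources in the 14q32 result was not tested.

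Within control EVs a few members carried most of the counts. miR-411-5p was highest with 326 and 384 CPM, which placed it at rank 104 of the 1141 miRNAs with a count there. miR-127-3p, whose mouse counterpart cleaves the Rtl1 transcript it lies antisense to, followed with 303 and 302 CPM. miR-379-5p, which opens the large part of the cluster, had 269 and 274 CPM. These 3 members held 51.1% of the member counts (exact 95% interval 50.1% to 52.2%). miR-494-3p had 174 and 142 CPM and miR-369-3p 115 and 87.8 CPM. These 5 members kept 1 order in both libraries, and no neighbours among them overlapped. The means of the next 7 were 74.2 ± 7.8 CPM for miR-409-5p, 63.4 ± 19.9 for miR-487b-3p, 58.4 ± 8.01 for miR-432-5p, 50.8 ± 9.26 for miR-376c-3p, 37.3 ± 6.58 for miR-409-3p, 36.4 ± 4.15 for miR-381-3p and 32.1 ± 1.34 for miR-493-5p (SD, n = 2 each). From miR-409-5p to miR-376c-3p each member overlapped its neighbour in this order, and so did miR-409-3p and miR-381-3p. miR-376c-3p (57.4 and 44.3 CPM) lay above miR-409-3p (32.7 and 42) without overlap, and miR-381-3p (39.4 and 33.5) above miR-493-5p (33.1 and 31.2) by a narrow margin. The 12 members named so far held 84.6% of the member counts.

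Of the 48 members, 46 had a count in control EVs and 43 had one in both libraries. Over 100 CPM stood 5 members, from 10 to 100 CPM 18, and above 0 up to 10 CPM 23. The median member was at 8.65 CPM, against 1.59 CPM over all 1141 miRNAs with a count there. miR-154-5p and miR-337-5p had no count in any of the 12 libraries. miR-134-5p, known as a regulator of dendritic spines in neurons, had 12 and 6 counts in control EVs. Across the 48 members the levels of the 2 control EV libraries went together with a Pearson r of 0.974 on the log2(CPM + 1) scale. That value describes agreement across miRNAs of 2 libraries that share a source, and miRNAs are not independent replicates.

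Levels along the cluster had no single gradient. The 10 members of the part near MEG3 and RTL1 (miR-493 to miR-136) had 1156 and 1180 counts in the control EV libraries. The 37 members from miR-379 to miR-656 had 3275 and 3412 counts, and miR-370-3p, which lies alone between them, 22 and 26. The part near MEG3 and RTL1 thus held 25.8% of member counts in control EVs (exact 95% interval 24.9% to 26.7%). In knockout EVs it held 18 of 91 counts, or 19.8% (12.2% to 29.4%), an interval that includes the control EV share. Neighbouring hairpins differed in level, as those of miR-379 and miR-411 had 1392 and 1863 counts on both arms together and that of miR-299 beside them 90.

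**Figure D2:**
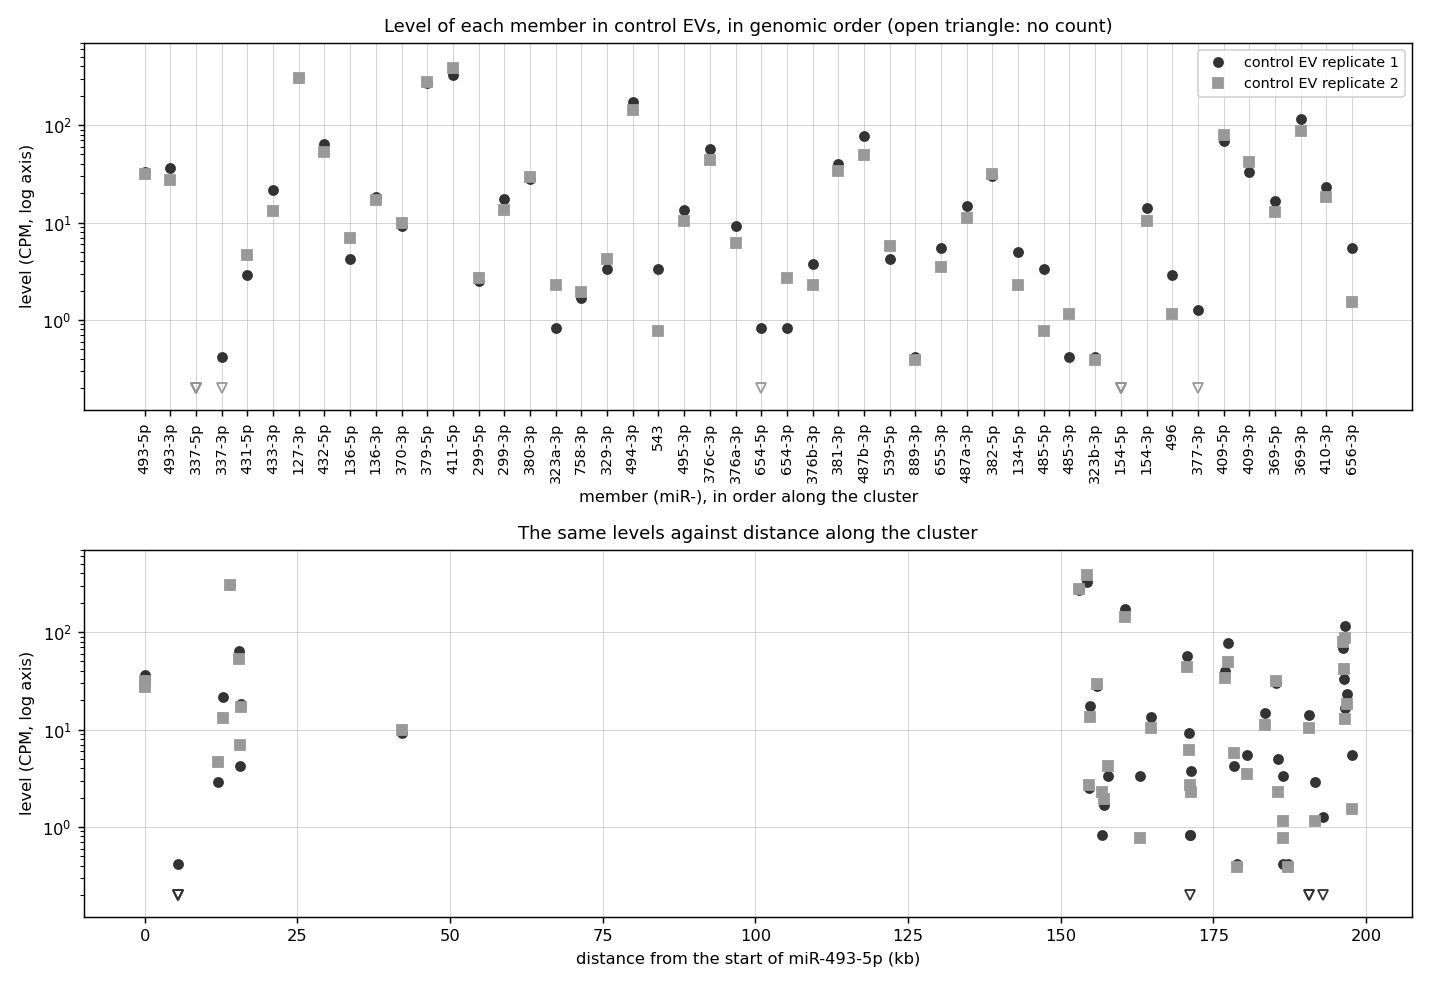
Level of each member in the 2 control EV libraries (CPM, log axis), in genomic order (upper panel) and against distance from miR-493-5p in kb (lower panel), with open triangles for no count. Levels over 100 CPM appear in both parts of the cluster, at miR-127-3p in the part near RTL1 and at miR-379-5p, miR-411-5p, miR-494-3p and miR-369-3p with lower members between them.

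The strand that was kept differed by hairpin. For 26 hairpins both arms together reached 20 counts in control EVs. Of these, 17 had mostly the 3p arm and 7 mostly the 5p arm by an exact 95% interval that excluded an even split. For miR-493 (50.5% on the 5p arm, interval 44.8% to 56.1%) and miR-539 (54.3%, 39% to 69.1%) the interval included it. miR-411 had 95.3% of 1863 counts on its 5p arm and miR-379 97.3% of 1392. miR-127 had 2.52% of 1547 counts there. miR-494 had 0 of 784 counts on the 5p arm, which allows a share up to 0.469%. miR-432 had all 290 counts on the 5p arm, and miR-409 had 66.5% of 558. In every one of the 26 hairpins but miR-493 and miR-539 both libraries lay on the same side of an even split. The 38 counts of miR-376a-3p enter both of its hairpin copies, since the table does not tell the copies apart.

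**Figure D3:**
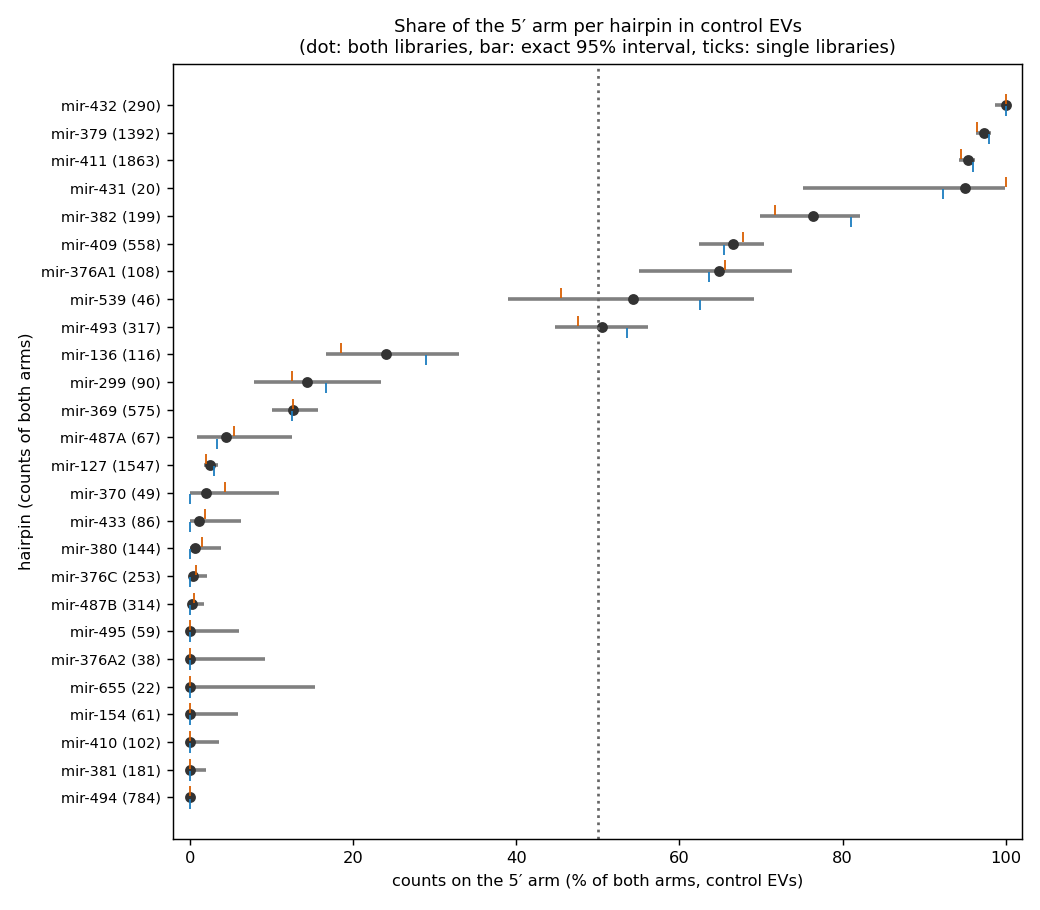
Share of counts on the 5p arm (percent of both arms, horizontal axis) for the 26 hairpins with at least 20 counts in control EVs, with the exact 95% interval as a bar and each library as a tick. Hairpins sit mostly at the ends of the scale, from miR-494 at 0% to miR-432 at 100%, and only the bars of miR-493 and miR-539 cross the dotted line of an even split.

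The remaining mature miRNAs of the cluster, 44 strands and hairpins outside the list of members, were distributed over the libraries in a like manner. They held 471 counts in control EVs, on 22 of the 44. They held none in knockdown EVs, 5 in knockout EVs, 1 in control cells, none in knockdown cells and 3 in knockout cells. The ratio of control EVs to knockout EVs was 131 (exact 95% interval 55.7 to 405), and control EVs were at least 10.6-fold higher than knockdown EVs.

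EVs of the knockout line had far less of the cluster than control EVs. The summed level was 138-fold lower in knockout EVs (exact 95% interval of the ratio 113 to 172). This value moved with single libraries, to 222 (151 to 340) without knockout EV replicate 1 and 105 (interval from 82.4) without knockout EV replicate 2. miR-411-5p had 778 and 998 counts in control EVs against 14 and 2 in knockout EVs, a ratio of 154 (94.7 to 270). miR-127-3p had 724 and 784 counts against 8 and 1, a ratio of 233 (interval up to 510). miR-379-5p had 642 and 712 counts against 6 and 5, a ratio of 171 (95.2 to 343). No library of one group reached into the range of the other for any of these.

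Further down the order, miR-494-3p had 415 and 369 counts against 8 and 2 in knockout EVs, a ratio of 109 (58.9 to 228). miR-409-5p had 164 and 207 counts against 2 and 2, a ratio of 129 (49.9 to 475). The next 6 members had few counts left in knockout EVs, and again no library overlapped. miR-487b-3p had 185 and 128 counts in control EVs against 2 and 2, and miR-432-5p 153 and 137 against 3 and 0. miR-376c-3p had 137 and 115 against 1 and 1, and miR-409-3p 78 and 109 against 2 and 1. miR-381-3p had 94 and 87 against 3 and 0, and miR-493-5p 79 and 81 against 1 and 1. Their ratios ran from 83.8 (28.2 to 410) for miR-381-3p to 175 (47.9 to 1452.8) for miR-376c-3p. miR-369-3p had 274 and 228 counts against none in either knockout library, so that control EVs were at least 232-fold higher. miR-154-3p, miR-299-3p and miR-433-3p were likewise at 0 in knockout EVs, with bounds of at least 28.2-fold, 35.6-fold and 39.3-fold from 61, 77 and 85 counts in control EVs. The smallest ratio belonged to miR-485-3p, with 1 and 3 counts in control EVs against 1 and 1 in knockout EVs, at 2.78 (0.398 to 30.7).

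Over all 48 members, 14 gave a bound against knockout EVs (4.17-fold to 232-fold), 27 a ratio (2.78 to 233, median 101) of which 26 had an interval above 1, and 7 had too few counts for either. Both control EV libraries lay above both knockout EV libraries in 43 of the 46 members with a count, where 32.2% of all miRNAs with a count in these libraries did so. In edgeR's quasi-likelihood test with Benjamini-Hochberg adjustment over all miRNAs tested, 27 members were tested and 27 were lower in knockout EVs, beside 41.2% called in either direction and 22.3% called lower over all 488 tested. All 27 passed the filter on low counts only through control EVs, where they were high, so neither that count nor its share is support. The log2 fold change was -6.86 (SE 0.31, adjusted p = 8.19e-10) for miR-411-5p, -7.43 (SE 0.32, 5.02e-10) for miR-127-3p and -6.99 (SE 0.23, 1.92e-10) for miR-379-5p by edgeR. At the level of control EVs the depth of knockout EVs would have given 12597.9 member counts, and 91 were observed.

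The leukocyte, stromal and erythroid lists and miR-126 were far lower in knockout EVs as well. The ratio of control EVs to knockout EVs was 130 (107 to 160) for the leukocyte list, 80.9 (72.6 to 90.4) for the stromal list, 48.6 (46 to 51.5) for the erythroid list and 21 (19.7 to 22.5) for miR-126. The liver list had a ratio of 1.82 (1.73 to 1.92), within which miR-122-5p, the edited miRNA, alone had 286 (138 to 712). Without miR-122-5p the ratio of the liver list was 1.08 (1.02 to 1.14). The epithelial list was higher in knockout EVs, at a ratio of 0.588 (0.544 to 0.635). Between the knockout EV libraries, replicate 1 was above replicate 2 in the members (17.3 against 8.21 CPM). Replicate 1 was also higher in the leukocyte list (18.9 against 9.47), the stromal list (54.6 against 40.4) and the erythroid list (207 against 149). The epithelial list and miR-126 were nearly level between these libraries, and the liver list was slightly higher in replicate 2. The part of these lists in the result was not tested.

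**Figure D4:**
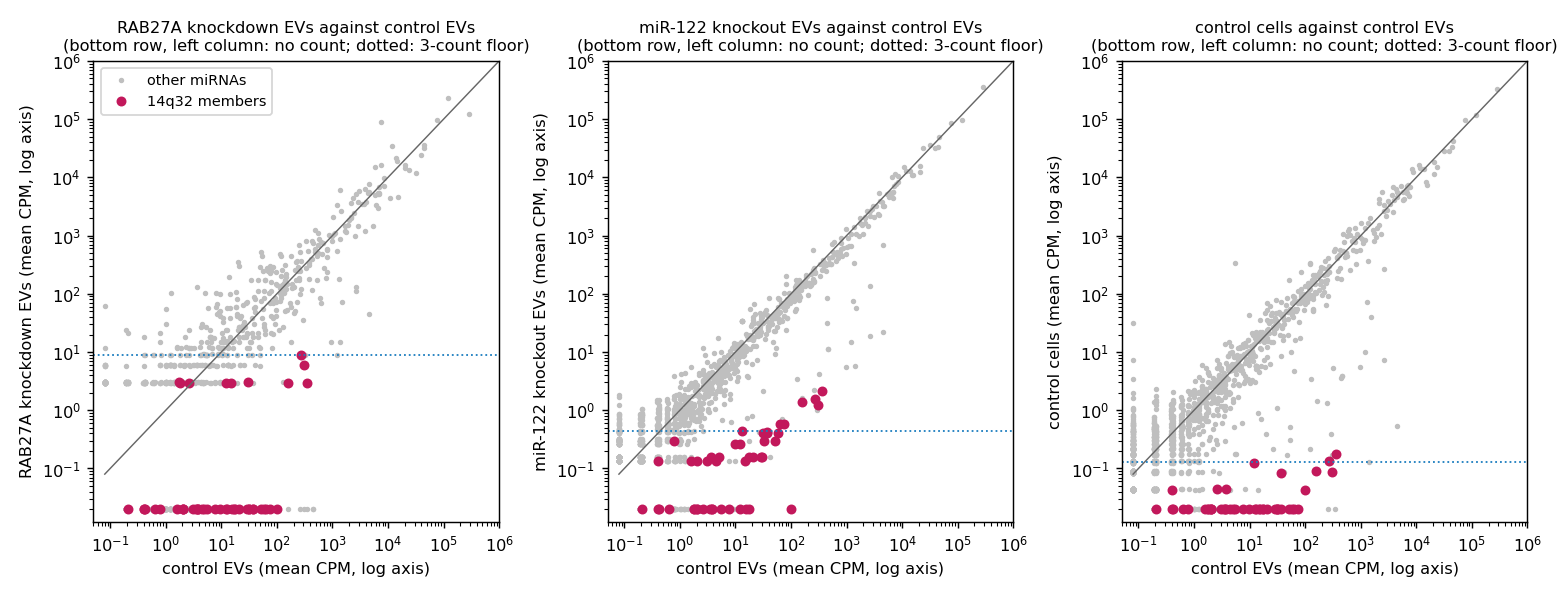
Mean level of each miRNA in control EVs (horizontal, CPM, log axis) against knockdown EVs, knockout EVs and control cells (vertical, CPM, log axis), with the 48 members in colour, the diagonal of equal level and a dotted line at the 3-count limit of the vertical group. The points in the bottom row or at the left edge had no count. Against knockout EVs and control cells the members over 10 CPM in control EVs all lie far below the diagonal, as do some other miRNAs, and against knockdown EVs the members lie at or under the 3-count limit.

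EVs of the RAB27A knockdown line also had less of the cluster than control EVs, at a much lower depth. This comparison and the previous one share the control EV libraries. The summed level was 46.9-fold lower in knockdown EVs (exact 95% interval of the ratio 27.4 to 88.1), on 6 and 7 member counts against 4453 and 4618. miR-411-5p had no count and 1 count in knockdown EVs, a ratio of 119 (21.4 to 4718.2). miR-127-3p had 2 and 0 counts, a ratio of 50.7 (14 to 419), and miR-379-5p had 2 and 1 counts, a ratio of 30.3 (10.4 to 147). miR-494-3p had 0 and 1 counts, a ratio of 52.7 (9.43 to 2084.3). miR-382-5p had 1 and 0 counts against 71 and 81 in control EVs, a ratio of 10.2 (1.81 to 406). The other 5 of 10 ratios had intervals that include 1, and the median of the 10 was 7.55. The lowest were miR-299-5p at 0.874 (0.131 to 37.1) and miR-654-3p and miR-758-3p at 0.605 (0.0838 to 26.5) each, on 1 count in knockdown EVs.

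The members miR-369-3p, miR-409-5p, miR-487b-3p, miR-432-5p, miR-376c-3p and miR-409-3p had no count in either knockdown library, which bounds control EVs as at least 11.2-fold, 8.31-fold, 7.01-fold, 6.5-fold, 5.65-fold and 4.19-fold higher. miR-381-3p and miR-493-5p were also at 0, with bounds of at least 4.06-fold and 3.59-fold. Of 31 members with such a bound, 17 had a bound above 1. For the other 14 a level like that of control EVs was not detectable at this depth. At the level of control EVs, 24 of the 48 members would have given 3 or more counts in knockdown EVs, and 17 of these 24 were at 0. The sum would have been 610 counts, and 13 were observed.

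Both control EV libraries lay above both knockdown EV libraries in 40 of the 46 members with a count, beside 36.7% of all miRNAs. A member with no count in knockdown EVs enters these 40 whenever both control EV libraries had a count. miR-134-5p did so with a bound of only 0.403-fold. The count of 40 is therefore no evidence for members that were undetectable at this depth. Of 27 members tested, edgeR's quasi-likelihood test called 21 lower and none higher in knockdown EVs, beside 46.3% in either direction and 27.5% lower over all 488 tested. The filter passed these 27 only through control EVs, so the count is not support here either. By edgeR the log2 fold change was -6.97 (SE 0.66, adjusted p = 2.33e-06) for miR-411-5p, -5.03 (SE 0.38, 3.50e-07) for miR-379-5p and -5.76 (SE 0.56, 2.86e-06) for miR-127-3p. The 6 tested members that did not pass were miR-136-5p, miR-369-5p, miR-370-3p, miR-376a-3p, miR-495-3p and miR-539-5p, with adjusted p from 0.0627 to 0.181 by edgeR. The leukocyte list had a ratio of control EVs to knockdown EVs of 79.4 (40.3 to 184), the stromal list 34.3 (25 to 48.5), the erythroid list 45.3 (35.5 to 58.7), and miR-126 11 (8.92 to 13.8). The liver list had a ratio of 0.976 (0.857 to 1.12), within which miR-122-5p alone had 8.07 (4.61 to 15.7). Their part in the result was not tested.

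Knockdown and knockout EVs were compared directly. The summed level was 2.95-fold higher in knockdown EVs (exact 95% interval 1.51 to 5.3), with 36.4 and 41.1 CPM against 17.3 and 8.21. Without knockout EV replicate 1 it was 4.73-fold (2.23 to 9.53), and without knockdown EV replicate 2 it was 2.77 with an interval that includes 1 (0.991 to 6.27). None of 27 tested members passed edgeR's test, beside 40.4% of all 488 tested, and none had an unadjusted p under 0.05. DESeq2 also called none. The filter passed these 27 members through control EVs, which are not in this comparison. No member had more than 3 counts in knockdown EVs or 16 in knockout EVs. miR-136-5p, miR-154-3p, miR-299-3p, miR-369-3p, miR-376a-3p and miR-433-3p had none in either. At such counts the lack of calls by both tools does not show equal levels, and its share does not compare with that over all miRNAs. Of the members with a ratio, miR-379-5p alone had an interval above 1, at 5.63 (1.01 to 21.3), and 1 of 31 members with a count had libraries that did not overlap in this direction, beside 18.1% of all miRNAs. The stromal list was 2.36-fold (1.64 to 3.3) and miR-126 1.91-fold (1.51 to 2.38) higher in knockdown EVs, while the leukocyte list had a ratio of 1.64 (0.688 to 3.35). Their part in the result was not tested.

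**Figure D5:**
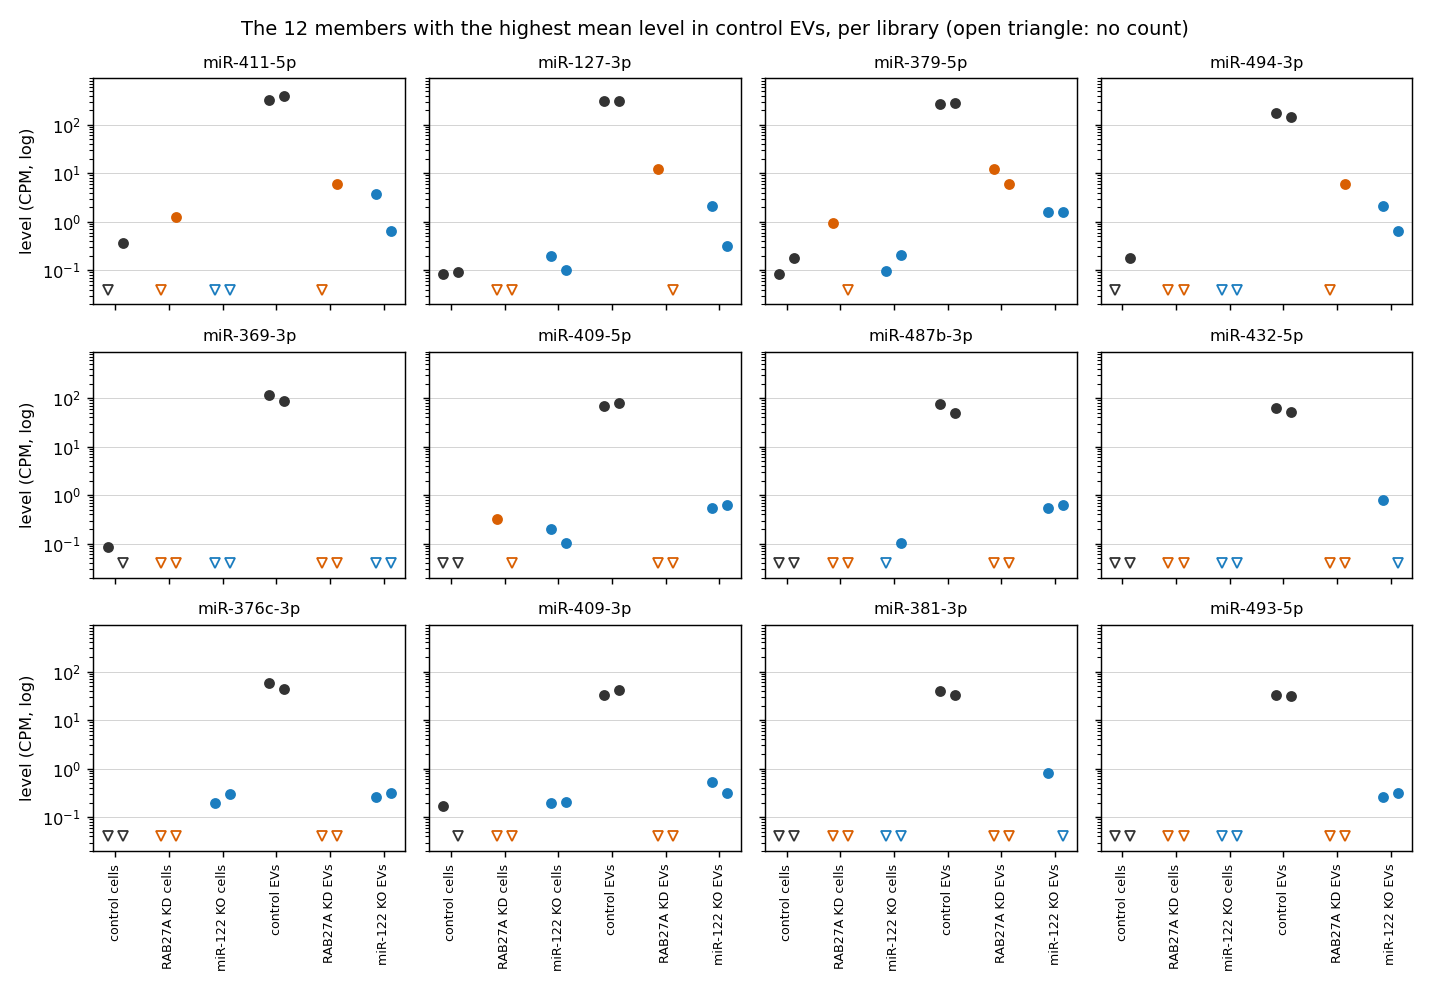
Level (CPM, log axis) in each of the 12 libraries for the 12 members highest in control EVs, with an open triangle where a library had no count. In each panel the 2 control EV points lie above all other points, and most points of the other groups are open triangles or stand for few counts.

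Control EVs were compared with the cells of the control line. Control cells had 20 member counts in total, on 10 of the 48 members, and the summed level was 2084.7-fold higher in control EVs (exact 95% interval 1349 to 3414.6). In control cells miR-411-5p had 0 and 4 counts, miR-379-5p 1 and 2 and miR-495-3p 3 and 0, and these were the 3 highest members there. The ratio of EVs to cells was 2040.8 (796 to 7498.3) for miR-411-5p, 2074.5 (708 to 10072) for miR-379-5p, 3465.7 (958 to 28643.4) for miR-127-3p and 90.4 (29.5 to 451) for miR-495-3p. miR-127-3p had 1 and 1 counts in control cells, miR-494-3p 0 and 2, miR-369-3p 1 and 0 and miR-409-3p 2 and 0. miR-409-5p, miR-487b-3p, miR-432-5p, miR-376c-3p, miR-381-3p and miR-493-5p had none, so that control EVs were at least 568-fold, 480-fold, 444-fold, 386-fold, 277-fold and 245-fold higher. In 43 of the 46 members with a count both EV libraries lay above both cell libraries, beside 27.2% of all miRNAs.

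By edgeR 29 of 29 tested members were higher in control EVs than in control cells, beside 53.7% called in either direction and 30.8% called higher over all 574 tested. Only miR-379-5p and miR-411-5p would have passed the filter on low counts without control EVs, so the count is not support. The log2 fold change was 10.62 (SE 0.32, adjusted p = 3.95e-33) for miR-379-5p and 10.65 (SE 0.41, 7.37e-16) for miR-411-5p by edgeR. The ratio of control EVs to control cells was 174 (153 to 198) for the leukocyte list, 185 (169 to 202) for the stromal list, 32.4 (31.5 to 33.3) for the erythroid list, 25.1 (24 to 26.2) for miR-126 and 2.61 (2.5 to 2.72) for the liver list, within which miR-122-5p alone had 736 (387 to 1612.7). It was 1.19 (1.1 to 1.28) for the epithelial list and 0.886 (0.885 to 0.887) for the list abundant in this line. Their part in the result was not tested.

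In the knockout line the members were also higher in EVs than in cells as a sum. Knockout EVs had 65 and 26 member counts and knockout cells 13 and 21, and the summed level was 7.74-fold higher in EVs (exact 95% interval 5.16 to 11.8). Without knockout EV replicate 1 it was 4.83-fold (2.78 to 8.29). miR-379-5p had a ratio of 10.6 (2.8 to 59.2), miR-127-3p of 8.67 (2.16 to 49.8) and miR-487b-3p of 11.6 (1.14 to 569). miR-411-5p and miR-494-3p had no count in knockout cells, with EVs at least 15.4-fold and 9.63-fold higher. For miR-376c-3p the values were close, with 2 and 3 counts in knockout cells against 1 and 1 in knockout EVs and a ratio of EVs to cells of 1.16 (0.11 to 7.06). By edgeR 9 of 29 tested members were higher in knockout EVs, beside 59.1% in either direction and 33.3% higher over all 574 tested. Tested members with no count in this line, such as miR-369-3p, could not be called. The filter on low counts passed 27 of the 29 only through control EVs. The same holds for EVs against cells in the knockdown line and for both interactions. Control EVs enter the interactions, so the counts of calls there are not support. Leaving out knockout EV replicate 1 reduced the count of 9 to 4, knockout cell replicate 1 to 4 and knockout cell replicate 2 to 5, and with no filter 4 were called. In 10 of the 30 members with a count the EV libraries lay above the cell libraries without overlap, beside 28.8% of all miRNAs. The leukocyte list had a ratio of 7.89 (5.36 to 11.8), the stromal list of 3.54 (3.01 to 4.17), miR-126 of 5.69 (5.08 to 6.37) and the erythroid list of 1.08 (1.01 to 1.15). The erythroid libraries overlapped, at 207 and 149 CPM in knockout EVs and 169 and 165 in knockout cells. The part of these lists in the result was not tested.

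The knockdown line had 7 and 5 member counts in cells and 6 and 7 in EVs, with a summed level 20.4-fold higher in EVs (exact 95% interval 8.57 to 48.8). By edgeR 2 of 29 tested members were higher in EVs, beside 19.3% in either direction and 7.32% higher over all 574 tested. They were miR-127-3p (2 and 0 counts in EVs against 0 and 0 in cells, adjusted p = 0.0137) and miR-379-5p (2 and 1 against 3 and 0, adjusted p = 0.0283). Leaving out knockdown EV replicate 1 gave 0 calls. Leaving out knockdown EV replicate 2, knockdown cell replicate 1 or knockdown cell replicate 2 gave 1 call each, as did the fit with no filter. In 1 of 13 members with a count the libraries did not overlap, beside 18.2% of all miRNAs. The leukocyte list had a ratio of 1.79 (0.749 to 3.69), the stromal list of 7.6 (5.07 to 11.2), the erythroid list of 1.95 (1.49 to 2.52) and miR-126 of 1.24 (0.987 to 1.55). Of the 38 stromal counts in knockdown EVs 37 came from 1 miRNA. The part of these lists in the result was not tested.

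The difference between EVs and cells was then compared between lines by an interaction term in the fit of all 12 libraries. For the knockdown line against the control line 4 of 29 tested members had a smaller difference, beside 18.6% called in either direction, 14.3% called smaller and 4.36% called larger over all 574 tested. They were miR-379-5p, miR-411-5p, miR-409-5p and miR-487a-3p, with adjusted p of 0.000482, 0.00337, 0.0106 and 0.0144 by edgeR. Leaving out knockdown cell replicate 1 gave 1 call, and DESeq2 gave 13. For the knockout line 10 of 29 had a smaller difference, beside 48.3% in either direction and 23.3% smaller. Among them were miR-376c-3p, miR-409-5p, miR-127-3p, miR-379-5p and miR-409-3p, with adjusted p of 1.87e-07, 1.46e-05, 3.02e-05, 4.61e-05 and 5.42e-05 by edgeR. Leaving out knockout cell replicate 2 gave 5 calls, and DESeq2 gave 23. miR-369-3p had no count in the cells or EVs of either line, and its term (adjusted p = 1 by edgeR in both) holds no information. The same limit held for miR-411-5p in the knockout line, which had no count in knockout cells (adjusted p = 0.986 by edgeR). It also held for every other tested member with no count in the cells of the edited or knockdown line compared. Of the 48 members, 6 had a count in knockdown cells and 14 in knockout cells, and all calls were among these. Most members that were not called thus could not be tested, and the shares do not compare with those over all miRNAs.

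Cells of the 3 lines held too few member counts for tests of single members. Control cells had 9 and 11 member counts, knockdown cells 7 and 5 and knockout cells 13 and 21. As a sum the members were 1.95-fold higher in knockout cells than in control cells (exact 95% interval 1.09 to 3.57). That interval included 1 without knockout cell replicate 2, at 1.46 (0.669 to 3.09), and without control cell replicate 1, at 1.71 (0.846 to 3.74). The ratio of knockdown to control cells was 2.18 (0.972 to 4.69). No member passed the filter on low counts in cells, where 62.3% of 613 tested miRNAs were called for the knockout (27.7% higher, 34.6% lower) and 53.8% for the knockdown (24.3% higher, 29.5% lower). With no filter, no member was called for either. miR-376c-3p had 2 and 3 counts in knockout cells and none in control cells, a level at least 1.91-fold higher, and miR-134-5p had 1 and 3 against none, at least 1.53-fold higher. miR-411-5p had 0 and 0 counts in knockout cells and 0 and 4 in control cells. Both knockout cell libraries lay above both control cell libraries in 6 of 20 members with a count, beside 20.1% of all miRNAs, and both knockdown cell libraries did so in none of 13, beside 21.8%. The leukocyte list was lower in knockout cells than in control cells (1.86 ± 1.1 against 10.9 ± 0.769 CPM, SD, n = 2 each), as was miR-126 (23.4 ± 1.54 against 112 ± 2.57), and their part in the result was not tested.

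The makeup of the few counts outside control EVs could be described only coarsely. The 12 members highest in control EVs held 84.6% of member counts there (exact 95% interval 83.9% to 85.4%), 73.6% in knockout EVs (63.3% to 82.3%), 53.8% in knockdown EVs (25.1% to 80.8%) and 55.9% in knockout cells (37.9% to 72.8%). The intervals of the other 3 groups lie below the control EV share, while those of control cells (45.7% to 88.1%) and knockdown cells (34.9% to 90.1%) include it. In knockout cells the 5 leading members held 17.6% of the counts (6.76% to 34.5%), against 65.3% (64.3% to 66.3%) in control EVs and 50.5% (39.9% to 61.2%) in knockout EVs. The members were chosen by name and the order by control EVs, so the share in control EVs is the highest such share there by construction.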

How the data were processed

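Small RNA of 12 libraries was measured as counts per mature miRNA. The deposited counts are whole numbers that were not normalized, made with cutadapt and Bowtie on genome build hg19 per the submitters' processing notes. Versions, the miRNA annotation and the counting of multi-mapping reads were not given in the sources used here, and near-identical members can share reads. Per the labels' protocols the library depends on a 5′ monophosphate and RNA came from cells by Trizol and from EVs by its liquid-sample form.

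CPM was computed over library totals, which ran from 164656 to 11840597. A fold against a group with no count is a bound from 3 counts over the group. Other folds are ratios of pooled CPM with an exact binomial 95% interval. Tests were run in R 4.3.3 with edgeR 4.0.16 on limma 3.58.1, by the quasi-likelihood method with TMM factors, filterByExpr and Benjamini-Hochberg adjustment over all miRNAs tested at 0.05. Comparisons between lines used the 6 libraries of cells (613 tested) or of EVs (488 tested), and comparisons of EVs with cells and interactions all 12 (574 tested). The SE is the size of the log2 fold change over the square root of F. DESeq2 1.42.0, other scalings, no filter, a replicate block, thinning and leaving out single libraries were alternatives. The scripts were tested on simulated data.

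Same-numbered replicates did not deviate together (r from -0.069 to 0.066 over 641 miRNAs), so the numbers were not taken to pair libraries. The members and lists were chosen with earlier results of these data known. By rule the text names the 12 members highest in control EVs, the 3 highest in control cells, up to 6 with the largest non-overlapping change per comparison, and all calls where there were 6 or fewer. Any other member named was chosen after its values were seen. Sequences and places are from RefSeq (GRCh38.p14) and hosts from GENCODE v29, and no coordinate was taken from the count table.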

Additional observations from a re-analysis of the deposited data

Results flagged for a closer look

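The difference between EVs and cells of the knockdown line differed from that of the control line for 4 of 29 tested members. This was read from the interaction term of edgeR's fit on all 12 libraries. Over all 574 miRNAs tested, 14.3% were called in that direction. Only 6 of the 48 members had a count in knockdown cells, and the term of a tested member without one held no information. The shares therefore do not compare. Without knockdown cell replicate 1 there was 1 call. Only miR-379-5p and miR-411-5p would have passed the filter on low counts without control EVs, so the count of calls is not support. On the log2 scale the knockdown line's difference was smaller by a change of -6.93 for miR-379-5p, -14.21 for miR-409-5p, -8.93 for miR-411-5p and -12.58 for miR-487a-3p. miR-409-5p and miR-487a-3p had no count in knockdown EVs and none in control cells, so their fitted values depend on the prior count and are no measure of size. Their calls rest on 1 and 2 counts in knockdown cell replicate 1.

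The knockout line's difference was smaller than the control line's for 10 of 29 tested members, beside 23.3% of all 574 called in that direction and 48.3% in either. Without knockout cell replicate 2 there were 5 calls. Of the 48 members 14 had a count in knockout cells, and the term of a tested member without one held no information. These shares therefore do not compare. The same filter applied here, which only miR-379-5p and miR-411-5p would have passed without control EVs, so this count is not support either. The log2 values were -8.5 for miR-127-3p, -9.81 for miR-376a-3p, -10.78 for miR-376c-3p, -7.58 for miR-379-5p, -9.77 for miR-382-5p, -7.38 for miR-409-3p, -9.72 for miR-409-5p, -10.98 for miR-433-3p, -8.22 for miR-487b-3p and -4.94 for miR-495-3p. miR-376a-3p, miR-376c-3p, miR-382-5p, miR-409-5p, miR-433-3p and miR-487b-3p had no count in control cells, so the same limit holds for their size. In knockout cells miR-376a-3p, miR-433-3p and miR-487b-3p each had 1 count, in replicate 2, and their calls depend on it. miR-376a-3p and miR-433-3p had no count in knockout EVs either. For miR-127-3p, miR-379-5p, miR-409-3p and miR-495-3p each of the 4 groups had at least 1 count.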

How the results depend on the processing

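No named member that was called in the main fit or under an alternative changed sign between them. The sign of called members that were not named was not followed one by one. The order of knockdown and knockout cells in the summed level was not stable, at 1.9 and 1.71 CPM on library totals and 2.01 and 2.11 CPM with TMM factors. Ratios of summed levels without 1 library, added after seeing the data, ran from 105 to 222 for control to knockout EVs and from 4.83 to 10.3 for knockout EVs to knockout cells. Members called lower in knockdown EVs than in control EVs numbered 14 to 22 and those lower in knockout EVs 25 to 32 when single libraries were left out, and those higher in control EVs than in control cells 26 to 34. With every library thinned to the shallowest, these 3 counts were 5, 5 and 7, on 5, 5 and 7 members tested, which the filter passes through control EVs, so these calls show nothing about stability. Thinning left 0 calls for EVs against cells in the knockdown line and in the knockout line and for both interactions, on 7 members tested. With no filter on low counts, EVs against cells gave 1 call in the knockdown line and 4 in the knockout line. DESeq2 gave 13 interaction calls for the knockdown line and 23 for the knockout line, against 4 and 10; the cause was not tested. Leaving out single libraries gave 0 to 2 calls for EVs against cells in the knockdown line, 4 to 9 in the knockout line, and 1 to 4 and 5 to 11 for the interactions. On library totals times TMM factors the summed level was 1664.1 CPM in control EVs and 29.4 CPM in knockdown EVs. The replicate block gave 19 calls for knockdown EVs, 27 for knockout EVs, 0 between them, 29, 2 and 8 for EVs against cells in the control, knockdown and knockout lines, and 4 and 9 for the interactions, and it changed the side of the threshold for miR-487a-3p in the knockout line and for miR-495-3p in its interaction. Library totals without TMM factors shifted the median log2 fold change of all miRNAs by 0.12 for knockdown EVs and by -0.37 for knockout EVs against control EVs, with 21 and 27 members still lower. For single named members 1048 of 1092 values without 1 library and 753 of 794 under the other alternatives stayed on their side of the threshold, and none reversed. Many of these values belong to members with few or no counts in the groups compared, which could hardly be called under any setting. Others are calls that passed the filter only through control EVs. These totals are therefore no measure of stability. The fit on the compared groups alone tested no member for EVs against cells in the knockdown and knockout lines and between knockdown and knockout EVs, and no fit with a filter tested a member in cells. Depth limits the knockdown EVs most, where 1 count is 5.87 to 6.07 CPM.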
